A study of Mus musculus with 12 samples.

Results

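The genes described here are the immunoglobulin genes of the mouse together with *Jchain* and *Mzb1*, as they were counted in RNA-seq of whole skin. Members were chosen by symbol, which had to begin with Ighv, Ighg, Igha, Ighm (not *Ighmbp2*), Ighd, Igkv, Igkc, Iglv or Iglc or to be *Jchain* or *Mzb1*, and by a sum of at least 10 counts over the 12 libraries. The table held 382 genes with such symbols among its 52636 genes, of which 162 had 0 counts in every library and 40 had 1 to 9 counts, so 180 members remained. The members are 7 heavy chain constant genes, 84 heavy chain variable genes, 1 heavy chain diversity gene (*Ighd4-1*), the kappa constant gene, 79 kappa variable genes, 3 lambda constant genes, 3 lambda variable genes, *Jchain* and *Mzb1*. The minimum is arbitrary at its edge, where *Igkv1-99* with 7 counts and *Ighv1-43*, *Igkv1-122*, *Ighv5-2* and *Ighv11-1* with 9 counts each fell outside, and *Igkv8-34* with 10, *Ighv1-31* and *Igkv11-106* with 11, and *Ighd4-1* and *Ighv9-2* with 13 fell inside. The rule used the summed counts of all libraries and no contrast between groups, but it favours genes that were high in any 1 library.

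Antibodies are made by B cells and, in bulk, by the plasma cells that B cells become. A heavy chain joins a rearranged variable region to a constant region that sets the class, with IgM and IgD made first and IgG, IgA or IgE made after class switching, and a light chain joins a kappa or lambda variable region to its own constant region. Each B cell clone uses its own pair of variable genes, so the set of variable genes read in a tissue reflects which clones are there. *Jchain* encodes the small chain that joins IgA into dimers and IgM into larger polymers, and *Mzb1* encodes a chaperone of the endoplasmic reticulum that is abundant in plasma cells. In bulk skin, fewer cells of a type and less RNA per cell cannot be told apart, which holds for every level given here.

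Skin of C57BL/6 mice aged 3 months was collected on day 14 from 4 groups of 3 mice. The WT group, which by the study's supplement are mice without Cre that carry floxed *Cdc42* on one or both alleles, and the KO group, in which floxed *Cdc42* is deleted by a Cre driven by the keratin K5 promoter and hence in basal keratinocytes and their progeny but not in B cells, received the vehicle, normal saline with HPMC. Mice of these genotypes form the groups WT+ZnO NPs and KO+ZnO NPs and were treated with zinc oxide nanoparticles continuously until that day. All 4 groups thus share the strain, the age, the tissue and the day. Levels are given as CPM, the counts scaled by library size, with TMM factors, which correct for differences in library composition.

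Total counts lay between 21076320 and 28867802 per library, and the members took between 0.00295% and 0.429% of them. *Cdc42*, read as a check of the labels, was at 606.1 to 628.4 CPM in the WT libraries and at 415.4 to 464.0 CPM in the KO libraries (log2 fold change −0.49, adjusted p = 0.0653 in the edgeR test). It was at 310.7 to 350.1 CPM in the WT+ZnO NPs-labelled libraries, below every KO library (log2 fold change −0.92 against WT, adjusted p = 0.000799), so it goes against that label, and at 313.5 to 453.0 CPM in the KO+ZnO NPs libraries. Y-linked transcripts, at 215 to 245 CPM in sum, were read in all 3 WT+ZnO NPs-labelled libraries, in KO replicate 1 and in KO+ZnO NPs replicate 1, and *Xist* was read in the other 7 libraries, although the study's methods describe female mice. Whether libraries were exchanged was not tested, so each comparison with the WT+ZnO NPs-labelled libraries rests on labels that *Cdc42* goes against. Sex and ZnO NPs therefore cannot be told apart within the mice labelled WT. For KO against WT and KO+ZnO NPs against KO, the summed levels and some counts and genes are also given with only the libraries that read *Xist*.

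The sequences of the variable genes that led the libraries are shown first, because the counts of such genes depend on how far they differ. *Ighv1-18* (chr12:114682632-114683065, minus strand, GRCm38) took the largest share of heavy variable counts in WT replicate 3 and *Ighv1-26* (chr12:114788372-114788805, minus strand) did so in all 3 KO libraries. Their coding segments of 351 bases are 96.9% identical and differ at 11 bases. The first 300 bases are printed, with the 10 differing bases among them in capitals.
Ighv1-18: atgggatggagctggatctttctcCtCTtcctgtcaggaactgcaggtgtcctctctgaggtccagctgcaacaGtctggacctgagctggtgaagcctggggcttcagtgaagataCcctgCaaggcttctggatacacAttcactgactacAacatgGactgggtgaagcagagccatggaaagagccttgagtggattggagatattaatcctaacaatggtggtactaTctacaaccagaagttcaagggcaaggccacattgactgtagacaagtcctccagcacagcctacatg
Ighv1-26: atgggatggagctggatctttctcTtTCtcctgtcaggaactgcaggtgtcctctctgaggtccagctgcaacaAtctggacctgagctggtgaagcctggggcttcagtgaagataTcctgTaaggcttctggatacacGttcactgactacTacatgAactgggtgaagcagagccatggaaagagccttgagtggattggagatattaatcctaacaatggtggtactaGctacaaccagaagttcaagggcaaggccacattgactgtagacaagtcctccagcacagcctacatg
*Igkv12-44* (chr6:69814631-69815154, minus strand) led the kappa variable counts of WT replicate 3 and *Igkv10-96* (chr6:68631963-68632442, minus strand) led those of WT replicate 1 and of KO replicates 1 and 3. Over 347 bases they are 71.2% identical, with 100 differing bases, of which the 83 in the first 300 bases are in capitals.
Igkv12-44: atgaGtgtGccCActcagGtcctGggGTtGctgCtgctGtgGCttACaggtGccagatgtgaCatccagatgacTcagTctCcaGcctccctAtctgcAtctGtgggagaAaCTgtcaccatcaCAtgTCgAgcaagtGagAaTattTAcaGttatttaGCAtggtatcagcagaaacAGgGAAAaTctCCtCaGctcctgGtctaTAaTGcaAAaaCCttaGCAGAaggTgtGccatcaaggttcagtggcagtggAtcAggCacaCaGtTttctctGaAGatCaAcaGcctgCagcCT
Igkv10-96: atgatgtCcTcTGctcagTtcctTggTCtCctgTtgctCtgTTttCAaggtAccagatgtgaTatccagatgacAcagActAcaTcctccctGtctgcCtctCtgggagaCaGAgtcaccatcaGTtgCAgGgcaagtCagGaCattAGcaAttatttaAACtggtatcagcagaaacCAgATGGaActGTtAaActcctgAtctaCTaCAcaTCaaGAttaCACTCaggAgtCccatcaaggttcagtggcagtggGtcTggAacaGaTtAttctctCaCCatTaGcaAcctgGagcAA
The heavy pair differs at few bases. The kappa pair differs along its length, but each of its genes has another near copy, since *Igkv10-96* was 95.4% identical to *Igkv10-94* and *Igkv12-44* 95.7% identical to *Igkv12-41*. Of all 50-base stretches of the annotated transcript, *Ighv1-26* shared 49.0%, *Ighv1-18* 32.6%, *Igkv10-96* 32.6% and *Igkv12-44* 30.7% with other genes. Some sharing was found for 139 of the 166 variable members (median 23.2%, over 50% in 21), so the split of counts among close variable genes is uncertain. *Igha*, *Ighm*, *Igkc* and *Iglc1* shared no such stretch with another gene, and *Ighg1* shared 0.393%, *Ighg3* 1.58%, *Ighg2b* 4.15% and *Ighg2c* 5.49%.

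The 180 members together were high in the KO skin of 2 mice and low in all skin given ZnO NPs. Their summed level was 272, 771 and 315 CPM in WT and 402, 2397 and 4210 CPM in KO. It was 33.7, 48.8 and 48.7 CPM in the WT+ZnO NPs-labelled libraries and 136, 32.8 and 147 CPM in the KO+ZnO NPs libraries. The KO mean was 5.16 times the WT mean, but the groups overlap, since KO replicate 1 lay below WT replicate 2. The WT mean was 10.4 times the mean of the WT+ZnO NPs-labelled libraries and the KO mean was 22.2 times the KO+ZnO NPs mean, and neither pair of groups overlaps. Among the libraries with *Xist* alone, the mean was 7.29 times higher in KO than in WT and 36.8 times higher in KO than in KO+ZnO NPs. A sum over members was not tested.

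**Figure D1:**
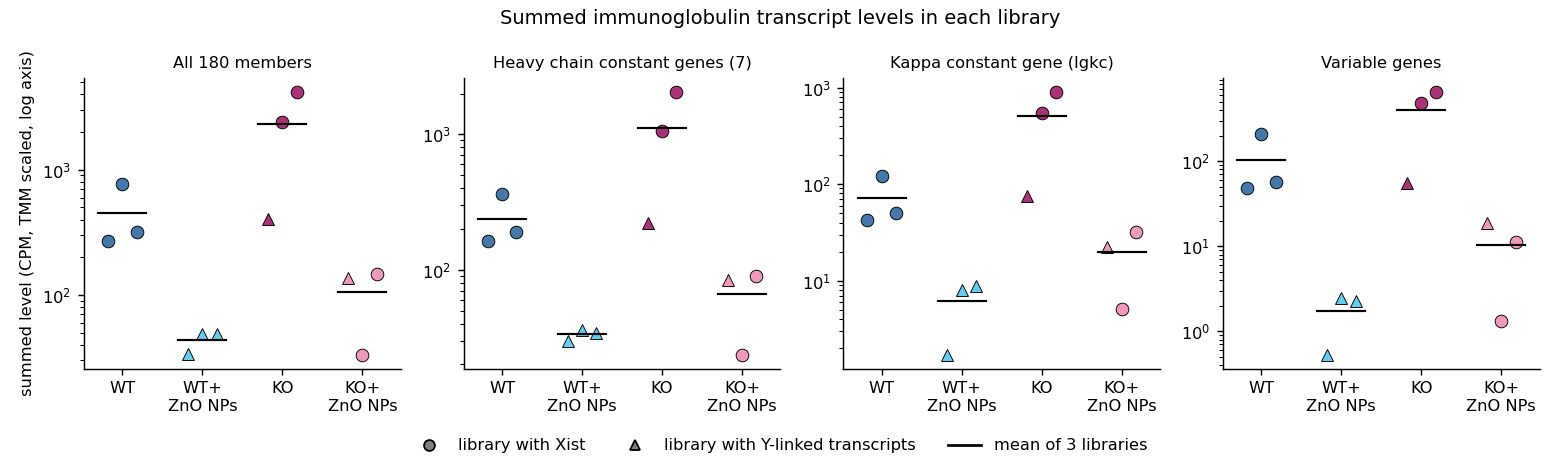
Summed level (CPM, log axis) of all 180 members, the 7 heavy chain constant genes, *Igkc* and the 166 variable genes in each of the 12 libraries, with circles for libraries with *Xist*, triangles for libraries with Y-linked transcripts and a line at each group mean. KO replicates 2 and 3, at 2397 and 4210 CPM for all members, stand above the other 10 libraries, and the WT+ZnO NPs-labelled libraries lie at 33.7 to 48.8 CPM.

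The sum of the variable genes separated the groups given ZnO NPs further from their vehicle groups than the sums of constant genes did, though by little for the IgG genes in KO. Their summed level was 47.9, 207 and 56.8 CPM in WT against 0.520, 2.47 and 2.25 CPM in the WT+ZnO NPs-labelled libraries, a ratio of means of 59.5, where the 7 heavy constant genes gave 7.12. In KO it was 55.0, 485 and 659 CPM against 18.5, 1.31 and 11.2 CPM in KO+ZnO NPs, a ratio of 38.6, where the heavy constant genes gave 16.9. Other constant genes lay nearer to the variable genes in KO. *Igkc* gave 11.6 in the mice labelled WT and 25.6 in KO, and the lambda constant genes gave 31.9 and 30.4. The IgG genes gave 10.8 and 36.7, and their sums overlap between KO and KO+ZnO NPs. Of 843, 1069 and 1231 member counts the WT+ZnO NPs-labelled libraries held 682, 531 and 748 counts of *Ighm* and 6, 16 and 14 counts of all heavy variable genes. *Ighm* counts per heavy variable count were thus 114, 33.2 and 53.4 there, against 7.56, 4.46 and 7.84 in WT and 3.58, 1.18 and 0.630 in KO. The KO+ZnO NPs libraries, at 6.61, 50.2 and 14.1, lay above every KO library.

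In the comparison of KO with WT, which asks what the loss of *Cdc42* in the epidermis does to the antibody genes of the skin, 4 class switched constant genes rose while *Ighm* and *Ighd* did not pass the test. Of the 180 members 88 passed the filter on low counts, and of these 14 were called higher and 0 lower in KO by the quasi-likelihood F test of edgeR, with p-values adjusted by Benjamini-Hochberg over 18822 genes and called below 0.05. Over all genes tested 8.18% were called, 4.61% higher and 3.58% lower. A member could pass this filter through the libraries where it is high, many of them KO, so the counts and medians in all comparisons describe the members that passed and not all members. The 14 are 4 of the 7 heavy constant genes (*Igha*, *Ighg1*, *Ighg2b*, *Ighg2c*), *Jchain*, 3 of 34 tested heavy variable genes and 6 of 39 tested kappa variable genes. The median log2 fold change over the 88 was 2.02, against 0.010 over all genes tested, with 74 of them above 0. Leaving out 1 library also changes which genes pass the filter. The count was 2 of 130 members without WT replicate 2, 2 of 138 without WT replicate 3, 4 of 137 without WT replicate 1, 5 of 93 without KO replicate 3 and 9 of 95 without KO replicate 2, with 1.94% to 4.75% of all genes called in these fits. It was 50 of 135 without KO replicate 1, where 4.04% of all genes were called. With only the KO and WT libraries in the fit 16 of 90 members (17.8%) were called, near the 15.9% of all genes.

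*Igha* (chr12:113254830-113260236, minus strand), the constant gene of IgA, the class secreted at mucosal surfaces and into glands, was the most abundant heavy constant gene of KO skin. It was read at 26.2, 5.69 and 16.4 CPM in WT and at 130.1, 707 and 1219 CPM in KO. All KO libraries lay above all WT libraries, although they differed among themselves more than the WT libraries did. The log2 fold change was 5.41 ± 1.02 (SE, n = 3 per group, edgeR adjusted p = 0.0126), and it was 5.91 (adjusted p = 0.0256) with only the libraries that read *Xist*. The call was lost without WT replicate 2 (adjusted p = 0.0644) or 3 (adjusted p = 0.0546). *Jchain* (chr5:88519809-88527891, minus strand) was read at 13.3, 54.8 and 17.9 CPM in WT and at 46.0, 281 and 521 CPM in KO. Here KO replicate 1 fell below WT replicate 2, and the rise of 3.30 ± 0.86 on the log2 scale (edgeR adjusted p = 0.0420) was no longer past the threshold with sex as a covariate (3.37, adjusted p = 0.0539). With only the libraries that read *Xist* the rise was 3.80 (edgeR adjusted p = 0.0454). It was called in 13 of 23 alternatives, and without any 1 WT library or KO replicate 2 or 3 the adjusted p was 0.0674 to 0.135.

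The IgG genes rose from very low levels, and by different amounts in the 3 KO mice. *Ighg1*, the constant gene of the IgG class that dominates many type 2 responses in mice, was at 1.05, 0.632 and 1.32 CPM in WT and at 7.10, 90.8 and 597 CPM in KO. Its log2 fold change of 7.86 ± 1.57 (edgeR adjusted p = 0.0152) was the largest of the members called. *Ighg2b* was at 1.68, 0.281 and 1.40 CPM in WT and at 3.62, 14.1 and 42.3 CPM in KO (log2 fold change 4.16 ± 0.93, edgeR adjusted p = 0.0249). *Ighg2c*, the form of the IgG2a/c class that C57BL/6 mice carry, was at 1.34, 0.0351 and 0.722 CPM in WT and at 1.62, 56.6 and 47.3 CPM in KO (5.66 ± 1.39, edgeR adjusted p = 0.0347). In each of these genes every KO library exceeded every WT library, and KO replicate 1 was the lowest KO library. Without any 1 WT library these calls were lost, with adjusted p of 0.0581 to 0.0854 for *Ighg1*, 0.0586 to 0.0974 for *Ighg2b* and 0.0702 to 0.122 for *Ighg2c*, as were those of *Ighg2b* without KO replicate 3 (0.0751) and of *Ighg2c* without KO replicate 2 (0.0746) or 3 (0.0793). *Ighg3* did not share this pattern, with 0.881, 5.97 and 0.297 CPM in WT, 0, 1.04 and 10.9 CPM in KO and overlapping groups (adjusted p = 0.797).

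Neither constant gene of unswitched B cells passed the test. *Ighm* (chr12:113418558-113422730, minus strand), the constant gene of IgM, was at 130.1, 346 and 166 CPM in WT and at 78.9, 178 and 148 CPM in KO. The groups overlap and the log2 fold change of −0.67 ± 0.46 did not pass the test (edgeR adjusted p = 0.400). *Ighd*, the constant gene of IgD, which naive B cells carry on their surface, was at 1.18, 1.93 and 1.95 CPM in WT and at 1.32, 1.49 and 1.81 CPM in KO (adjusted p = 0.862).

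**Figure D2:**
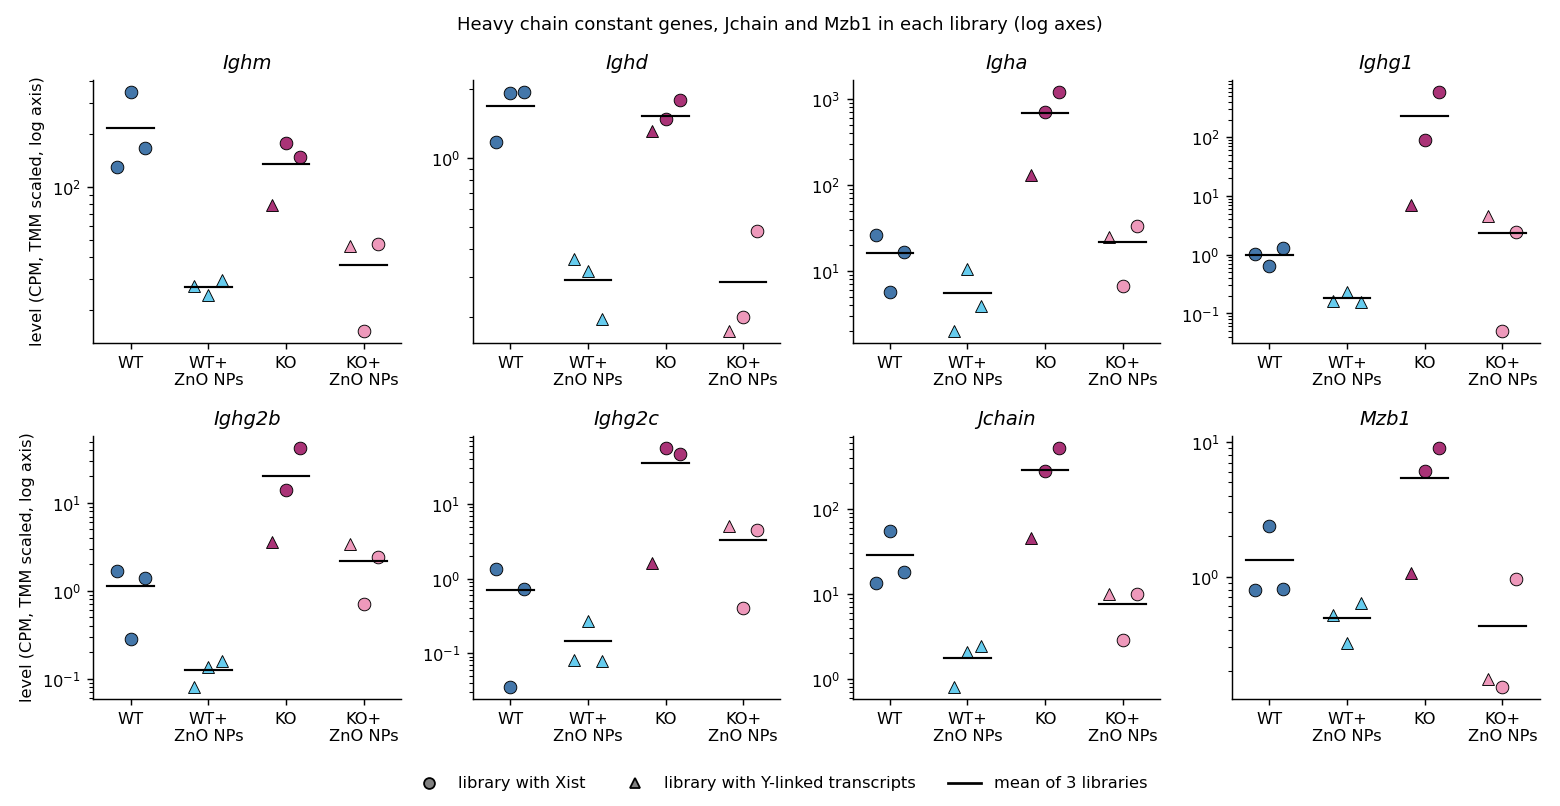
Level (CPM, log axes) of *Ighm*, *Ighd*, *Igha*, *Ighg1*, *Ighg2b*, *Ighg2c*, *Jchain* and *Mzb1* in each library of the 4 groups. *Igha* lies at 130.1 to 1219 CPM in KO and below 34 CPM in the other 9 libraries, whereas *Ighm* spans 78.9 to 346 CPM over the WT and KO libraries, which overlap.

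No light chain constant gene was called in KO against WT. *Igkc* (chr6:70726435-70726966, plus strand), the constant gene of kappa chains, was at 42.3, 121 and 50.4 CPM in WT and at 74.6, 548 and 906 CPM in KO. KO replicate 1 lay within the WT range, and the log2 fold change of 2.84 ± 0.93 did not pass the test (edgeR adjusted p = 0.0858). *Iglc1*, *Iglc2* and *Iglc3*, the lambda constant genes, gave log2 fold changes of 2.72, 0.38 and −0.79, none past the test (adjusted p = 0.190, 0.884 and 0.774). Per kilobase of exon, the scale on which genes can be compared, the mean level in KO was 958 CPM per kb for *Igkc*, 257 for *Igha*, 112 for *Jchain*, 89.3 for *Ighg1* and 71.6 for *Ighm*. In WT it was 134 CPM per kb for *Igkc*, 114 for *Ighm*, 11.4 for *Jchain*, 6.03 for *Igha* and 0.386 for *Ighg1*, so *Ighm* stood above *Igha* in WT and below it in KO. *Mzb1* was at 0.797, 2.39 and 0.807 CPM in WT and at 1.06, 6.11 and 9.03 CPM in KO, where the groups overlap (2.01 ± 0.81, edgeR adjusted p = 0.147).

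The classes of the heavy chain are compared most directly as shares within each library, which do not depend on how much antibody RNA it holds. *Igha* took 16.1%, 1.58% and 8.71% of the heavy constant counts of the WT libraries and 58.4%, 67.4% and 59.0% of those of the KO libraries. *Ighm* took 80.1%, 96.0% and 88.3% in WT and 35.4%, 17.0% and 7.16% in KO. The 4 IgG genes together took 3.05%, 1.92% and 1.98% in WT and 5.54%, 15.5% and 33.8% in KO. For each of these 3 shares the KO and WT libraries do not overlap. The mean IgA share was 61.6% ± 5.02 (SD, n = 3) in KO, lowest in replicate 1, which also has the lowest total of its group, and 8.80% ± 7.28 in WT. The IgG share of KO was 18.3% ± 14.3.

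In the KO+ZnO NPs libraries the share of *Igha* lay below that of every KO library. *Igha* took 6.68%, 29.5% and 11.4% in the WT+ZnO NPs-labelled libraries, which overlap those of WT and reach above them, and 29.7%, 29.0% and 36.8% in KO+ZnO NPs. *Ighm* took 91.1%, 67.6% and 86.9% in the former and 54.4%, 65.2% and 52.3% in the latter, and the 4 IgG genes took 1.07%, 2.04% and 1.16% against 15.7%, 4.98% and 10.4%. The shares of *Igha* overlap between these groups, and those of *Ighm* and of IgG come close in replicate 2 of each, where they rest on 786 and 462 heavy constant counts. The 95% exact binomial interval of the *Ighm* share there was 64.2% to 70.8% in the WT+ZnO NPs-labelled library and 60.6% to 69.5% in the KO+ZnO NPs library, and that of the IgG share was 1.17% to 3.28% and 3.18% to 7.38%, so both pairs of intervals overlap. These intervals cover counting error only. No test was made of the shares.

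**Figure D3:**
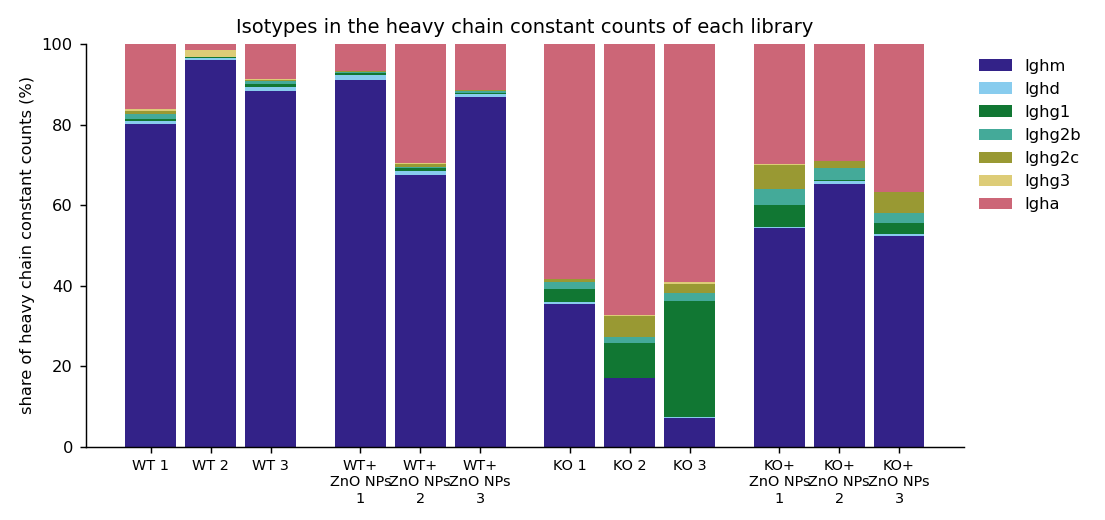
Share (%) of each heavy chain constant gene in the heavy constant counts of a library, as 1 stacked bar per library. *Igha* takes 58.4% to 67.4% in KO, 29.0% to 36.8% in KO+ZnO NPs and 1.58% to 29.5% in the other 6 libraries, where *Ighm* takes 67.6% to 96.0%.

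Among the variable genes, the KO mice read more genes more evenly and the WT mice each had their own leading genes. In WT replicate 3, *Ighv1-18* took 50.7% of 499 heavy variable counts (95% exact binomial interval 46.2% to 55.2%) and *Igkv12-44* took 52.9% of 818 kappa variable counts (49.4% to 56.4%). These genes were at 10.8 and 18.4 CPM there, and at 0.0839 and 0.175 CPM (*Ighv1-18*) and 0.0420 and 0.351 CPM (*Igkv12-44*) in the other two WT libraries. WT replicate 1 was led by *Ighv3-5* with 23.2% and *Igkv10-96* with 28.7%, and WT replicate 2 by *Ighv6-3* with 11.8% and *Igkv1-117* with 17.2%. *Ighv3-5*, at 3.99 CPM in WT replicate 1, was at 0 in WT replicate 3 and in KO replicates 1 and 3.

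In the KO libraries the leading heavy gene, *Ighv1-26*, took 9.83%, 7.62% and 5.68%, and the leading kappa gene took 9.50% (*Igkv10-96*), 6.46% (*Igkv8-21*) and 7.70% (*Igkv10-96*). The effective number of genes is the inverse of the probability that a pair of counts drawn without replacement is of the same gene. It was 31.7, 29.8 and 44.5 for the heavy chain in KO and 8.76, 20.6 and 3.50 in WT. For kappa it was 27.1, 31.5 and 39.2 in KO and 7.74, 16.6 and 3.23 in WT. The groups do not overlap on either chain. The heavy variable counts behind these values were 410, 2214 and 499 in WT and 519, 3751 and 5339 in KO. The effective number, and the part of the number of counts in it, was not tested. In the KO+ZnO NPs libraries with at least 100 counts it was 25.7 for the heavy chain of replicate 1, and 17.0 and 31.7 for kappa of replicates 1 and 3. In the WT+ZnO NPs-labelled libraries no chain reached 100 variable counts, and no share is read from them.

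**Figure D4:**
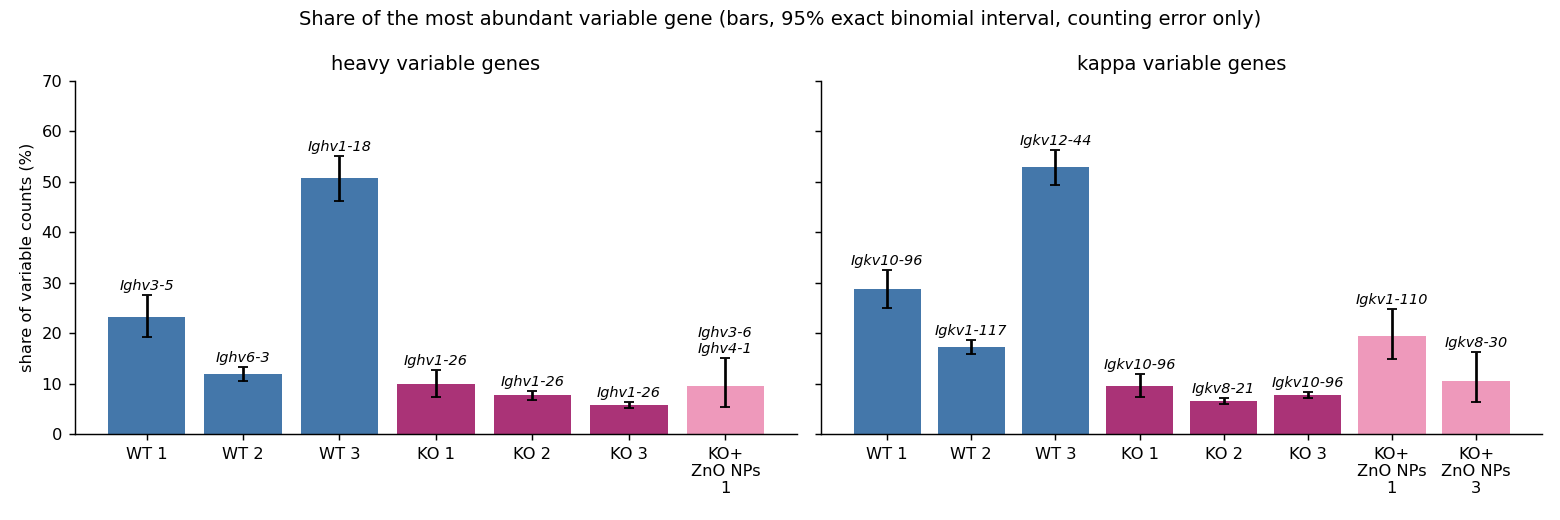
Share (%) of the leading heavy and kappa variable gene in the variable counts of each library with at least 100 such counts, with 95% exact binomial intervals for counting error. The WT libraries lie at 11.8% to 52.9% and the KO libraries at 5.68% to 9.83%.

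Of the variable members, more were read in each KO library than in any other library. This is in part set by the rule for members, since 136 of the 166 were highest in KO replicate 2 or 3. The variable counts behind it were 1294, 12063 and 14964 in KO and 1142, 5907 and 1336 in WT. They were 13, 54 and 57 in the WT+ZnO NPs-labelled libraries and 425, 26 and 257 in KO+ZnO NPs. The part of these counts in the detection was not tested. Of 166 variable members, 103, 118 and 84 had at least 1 count in the WT libraries, against 129, 156 and 158 for KO. The number was 6, 30 and 22 in the WT+ZnO NPs-labelled libraries and 98, 18 and 84 in KO+ZnO NPs. All 3 libraries were at 0 for 120 members in the former group, 42 in the latter, 25 in WT and 2 in KO. Each library has a floor, the level that a count of 0 still allows (3 counts), of 0.105 to 0.151 CPM, so such genes may be present below it. The highest library was KO replicate 3 for 95 members, KO replicate 2 for 41, WT replicate 2 for 25, WT replicate 1 for 3 and WT replicate 3 for 2, and never KO replicate 1 or a library given ZnO NPs.

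Heavy variable genes form families that are related by sequence, and the share of the Ighv1 family differed widely among the WT mice and little among the KO mice. The Ighv1 family, 43 of the members, took 16.6%, 27.1% and 77.2% of the heavy variable counts in WT and 54.1%, 51.7% and 53.2% in KO. The 3 KO libraries thus differed by less than 3 percentage points, inside the wide range of the WT libraries. Across the 8 libraries with at least 100 variable counts, the rank correlation of variable gene levels between pairs of libraries lay between 0.212 and 0.576 (28 pairs across genes, which are not independent replicates), with a median of 0.392 for pairs of the same group and 0.434 for pairs of different groups. The kappa and lambda shares varied likewise, with lambda taking 11.0%, 17.0% and 1.99% of the light chain constant counts in WT and 3.62%, 4.72% and 5.09% in KO.

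Of the variable genes 9 were called higher in KO than in WT, beside 4.61% of all genes tested. They are 3 of 34 tested heavy, 6 of 39 tested kappa and 0 of 2 tested lambda variable genes. Without 1 WT library, 4 of 137, 2 of 130 and 2 of 138 members of any class were called (replicates 1, 2 and 3). In these fits 3.99%, 1.94% and 3.19% of all genes were called. *Igkv14-111* was at 0.210, 0.175 and 0.297 CPM in WT and at 0.936, 3.98 and 5.06 CPM in KO (log2 fold change 3.85 ± 0.63, edgeR adjusted p = 0.0111). *Igkv3-5* was at 0, 0 and 0.0425 CPM in WT and at 0.510, 1.45 and 8.01 CPM in KO (7.49 ± 1.50, edgeR adjusted p = 0.0158). *Igkv14-111* and *Igkv3-5* were called in 21 and 19 of 22 alternatives. The other called variable genes, *Igkv4-57-1*, *Igkv3-2*, *Igkv17-127*, *Igkv6-13*, *Ighv14-2*, *Ighv1-76* and *Ighv1-50*, gave log2 fold changes from 3.76 to 5.41. The groups did not overlap in any of the 9, but these were picked because they were called, so the separation adds nothing to the calls. Of the 10 variable genes with the highest mean level, *Igkv8-21* did not pass the filter and the other nine were not called. *Iglv1*, at 0.839, 19.5 and 0.467 CPM in WT and 3.02, 30.6 and 38.1 CPM in KO, gave 1.78 ± 1.29 (edgeR adjusted p = 0.426). *Ighv1-26*, the leading heavy gene of KO, was at 0.252, 0.175 and 3.14 CPM in WT and at 2.17, 11.5 and 13.3 CPM in KO (2.92 ± 1.09, adjusted p = 0.132).

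In the comparison of the WT+ZnO NPs-labelled libraries with WT, which asks how continuous ZnO NPs change skin with an intact barrier, the constant genes of IgM, IgD and kappa and *Jchain* fell. Of the 88 tested members 40 were called lower and 0 higher (edgeR, adjusted p below 0.05), where 43.0% of all genes tested were called, 22.1% lower and 20.8% higher, and the median log2 fold change was −5.49 against 0.056 over all genes. With the members that have a group at 0 set to their bound, the median was −3.27 over 84 members. The 40 are 4 of 7 heavy constant genes, 14 of 34 heavy variable genes, *Igkc*, 16 of 39 kappa variable genes, 2 of 3 lambda constant genes, both tested lambda variable genes and *Jchain*. No library of one group shares its sex with a library of the other, and with sex as a covariate, estimated from the KO and KO+ZnO NPs groups, 2 of 88 members were called, *Ighm* and *Ighd*, where 20.7% of all genes were called in that fit. With only these 2 groups in the fit, 13 members passed and 10 were called, beside 49.0% of all genes. There a member can pass through the WT libraries, where the members are high, so a fall from WT is in part set by the filter in this fit too. The count was 13 to 19 of 138 members without any 1 WT+ZnO NPs-labelled library (30.7% to 37.2% of all genes) and 17 of 130 without WT replicate 2 (31.0% of all genes).

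*Ighm* fell from 130.1, 346 and 166 CPM to 27.3, 24.3 and 29.6 CPM (log2 fold change −2.99 ± 0.50, edgeR adjusted p = 0.000971), and with sex as a covariate the value was −2.81 (adjusted p = 0.0216). *Ighd* fell from 1.18, 1.93 and 1.95 CPM to 0.360, 0.320 and 0.198 CPM (−2.51 ± 0.42, edgeR adjusted p = 0.00105), and with the covariate it was −1.97 (adjusted p = 0.0434). Neither gene's groups overlap, and both were called under every alternative that could test them (22 and 21). *Jchain* was at 0.800, 2.06 and 2.41 CPM in the WT+ZnO NPs-labelled libraries, below all WT libraries (−4.03 ± 0.93, edgeR adjusted p = 0.00591), and *Igkc* at 1.68, 7.95 and 8.74 CPM (−3.54 ± 0.98, adjusted p = 0.0142). With sex as a covariate these calls were lost, at −3.11 (adjusted p = 0.116) and −2.38 (adjusted p = 0.238).

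Of the 5 constant genes of IgA and IgG, 2 were called in this comparison. *Igha* was at 2.0, 10.6 and 3.88 CPM in the WT+ZnO NPs-labelled libraries, which overlap those of WT (−1.55 ± 0.89, edgeR adjusted p = 0.181). *Ighg2b* fell to 0.080, 0.137 and 0.158 CPM (−3.10 ± 1.09, edgeR adjusted p = 0.0400) and *Ighg3* to 0, 0.0914 and 0 CPM (−6.17, adjusted p = 0.0445), but these were called in only 11 and 9 of 19 alternatives. *Ighg1* and *Ighg2c* were not called (adjusted p = 0.312 and 0.269). *Mzb1* was at 0.520, 0.320 and 0.633 CPM, below all WT libraries, without passing the test (−1.43 ± 0.85, edgeR adjusted p = 0.196).

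Of the variable genes that led a WT library, *Ighv1-18* and *Ighv3-5* were at 0 in all 3 WT+ZnO NPs-labelled libraries, which makes them at least 29.3-fold and 13.0-fold lower against a floor of 3 counts in each library. Each bound rests on 1 WT library, since it was 1.04-fold for *Ighv1-18* without WT replicate 3 and 3.64-fold for *Ighv3-5* without WT replicate 1. *Ighv1-26*, *Igkv1-135*, *Igkv8-30* and *Igkv9-120* were at 0 there too, at least 9.51-fold, 14.3-fold, 18.6-fold and 17.5-fold lower. Without the WT library in which each was highest (replicates 3, 2, 2 and 1) these bounds were 1.71-fold, 2.85-fold, 2.20-fold and 9.67-fold. *Igkv10-96*, at 6.97, 2.74 and 0.382 CPM in WT, was at 0, 0.0914 and 0 CPM (edgeR adjusted p = 0.00602). *Iglv1* was at 0, 0.0914 and 0 CPM (adjusted p = 0.0127).

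**Figure D5:**
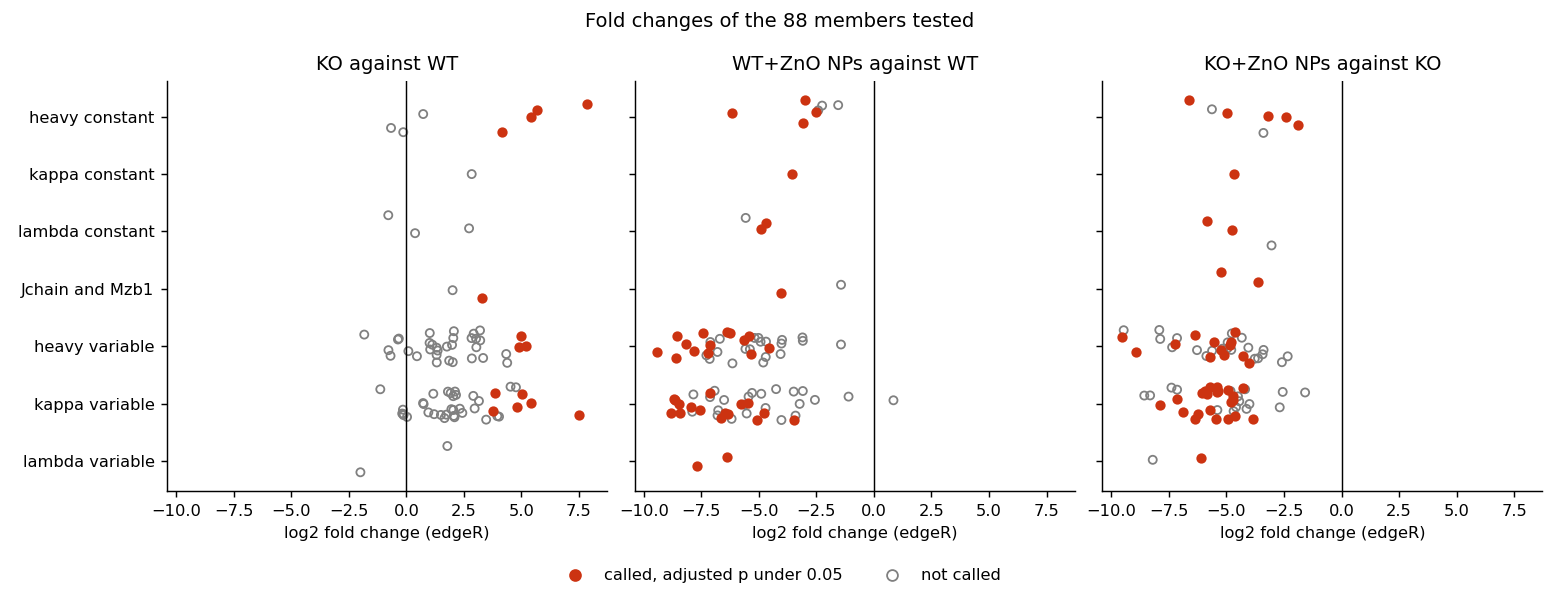
Log2 fold change of each of the 88 tested members by class in 3 comparisons, KO against WT, the WT+ZnO NPs-labelled libraries against WT, and KO+ZnO NPs against KO, with members called by edgeR in red. In KO against WT the members lie on both sides of 0 with 14 called higher, and in the ZnO NP comparisons 40 and 46 members were called lower.

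In the comparison of KO+ZnO NPs with KO, which asks the same of skin with a defective barrier, the constant genes of IgA, IgG1, IgG2b, IgM, IgD and kappa and both *Jchain* and *Mzb1* fell. Of the 88 tested members 46 were called lower and 0 higher, where 14.7% of all genes tested were called, 8.09% lower and 6.57% higher, and the median log2 fold change was −4.97 (−4.82 with bounds) against 0.007 over all genes. Since members that are high in KO are those that pass, a fall from KO is in part set by the filter. With only the KO and KO+ZnO NPs libraries in the fit 8 of 51 members were called, where 3.24% of all genes were. DESeq2 called 44 of the same 51 (16.8% of all genes), and 65 of 88 on all 12 libraries (23.3% of all genes). The 46 are 5 of 7 heavy constant genes, 13 of 34 heavy variable genes, *Igkc*, 22 of 39 kappa variable genes, 2 of 3 lambda constant genes, 1 of 2 lambda variable genes, *Jchain* and *Mzb1*. The KO libraries are shared with the comparison of KO with WT, so the 2 sets of values are not independent. The count was 6 of 95 members without KO replicate 2, 10 of 93 without KO replicate 3 and 10 of 138 without KO+ZnO NPs replicate 2, where 2.34%, 5.44% and 7.62% of all genes were called. It was 19 of 138 without KO+ZnO NPs replicate 3 (10.4% of all genes) and 93 of 135 without KO replicate 1 (10.8% of all genes).

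*Igha* fell from 130.1, 707 and 1219 CPM to 25.0, 6.75 and 33.3 CPM (log2 fold change −4.98 ± 1.00, edgeR adjusted p = 0.0136), and with sex as a covariate it was −4.61 (adjusted p = 0.0248). It was called in 22 of 23 alternatives, the exception being the fit of only these 2 groups (adjusted p = 0.0514). *Ighg1* was at 4.58, 0.0504 and 2.40 CPM in KO+ZnO NPs (−6.61 ± 1.46, edgeR adjusted p = 0.0180), and this call was lost with only these 2 groups in the fit (−6.63, adjusted p = 0.0915), with the covariate (−6.20, adjusted p = 0.0598) and without KO replicate 3 (−4.37, adjusted p = 0.0603). With only the libraries that read *Xist* the value for *Ighg1* was −8.08 (edgeR adjusted p = 0.0182). *Ighg2b* was at 3.40, 0.705 and 2.44 CPM (−3.19 ± 0.89, edgeR adjusted p = 0.0377), called in 13 of 22 alternatives. In these 3 genes the groups do not overlap. *Ighg2c*, at 5.06, 0.403 and 4.53 CPM, overlapped KO replicate 1 and was not called (−3.39 ± 1.23, adjusted p = 0.0838).

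*Jchain* was at 9.90, 2.87 and 9.84 CPM (−5.22 ± 0.95, edgeR adjusted p = 0.00985) and *Igkc* at 22.3, 5.09 and 32.2 CPM (−4.68 ± 1.02, edgeR adjusted p = 0.0170), and both were also called with sex as a covariate. *Jchain* was called in all 23 alternatives, and *Igkc* lost its call without KO replicate 2 (adjusted p = 0.0565) and with only these 2 groups in the fit (adjusted p = 0.0637). *Ighm* was at 45.9, 15.2 and 47.2 CPM (−1.90 ± 0.48, edgeR adjusted p = 0.0271) and *Ighd* at 0.175, 0.202 and 0.479 CPM (−2.40 ± 0.43, edgeR adjusted p = 0.00919), each below all KO libraries. The call of *Ighd* was lost with only these 2 groups in the fit (adjusted p = 0.0504). The call of *Ighm* was lost without KO replicate 2 (adjusted p = 0.0989) or 3 (0.0714) or KO+ZnO NPs replicate 2 (0.0597), with only the libraries that read *Xist* (−2.38, adjusted p = 0.0548) and with only these 2 groups in the fit (adjusted p = 0.0788). *Mzb1* was at 0.175, 0.151 and 0.958 CPM (−3.63 ± 0.90, edgeR adjusted p = 0.0259), a call lost without KO replicate 2 or 3 or KO+ZnO NPs replicate 1 or 2 (adjusted p = 0.0543 to 0.0773) and with only these 2 groups (adjusted p = 0.0889). Among the variable genes *Ighv1-9* and *Ighv8-12* were at 0 in all 3 KO+ZnO NPs libraries, at least 28.2-fold and 18.5-fold lower, or 13.0-fold and 5.88-fold without KO replicate 3. *Igkv16-104* was at 0.0851, 10.6 and 3.79 CPM in KO and at 0, 0 and 0.0435 CPM in KO+ZnO NPs (edgeR adjusted p = 0.0169).

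Between KO+ZnO NPs and the WT+ZnO NPs-labelled libraries no member was called by edgeR, where 3.28% of all genes tested were (2.13% higher and 1.16% lower), and 6 members had an unadjusted p below 0.05. DESeq2 called 7 of 88 in all 12 libraries, where it called 13.0% of all genes, and 2 of the 6 members it could test in these groups alone, where it called 5.06%. *Ighg2b* (0.080, 0.137 and 0.158 against 3.40, 0.705 and 2.44 CPM) and *Ighg2c* (0.080, 0.274 and 0.0791 against 5.06, 0.403 and 4.53 CPM) gave log2 fold changes of 4.08 ± 1.08 (edgeR adjusted p = 0.0610) and 4.52 ± 1.52 (adjusted p = 0.103). *Jchain* gave 2.11 ± 0.89 (edgeR adjusted p = 0.178). In these 3 genes every KO+ZnO NPs library exceeded every library of the other group. *Igha*, *Ighg1* and *Igkc* overlapped between the groups, and *Ighm* differed by 0.42 on the log2 scale (adjusted p = 0.613). The single KO+ZnO NPs library with Y-linked transcripts had a summed level of 136 CPM, above the 33.7 to 48.8 CPM of the 3 WT+ZnO NPs-labelled libraries, which have them too.

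The interaction, which asks whether ZnO NPs changed a gene differently in the 2 genotypes, was called for 0 of the 88 members by edgeR and by DESeq2, where edgeR called 8.68% of all genes tested (5.08% with a positive and 3.59% with a negative difference). DESeq2 called it for 17.1% of all genes. An unadjusted p below 0.05 was found for 1 member by edgeR and 4 by DESeq2. The single member by edgeR was *Igha*, with a log2 difference of −3.43 ± 1.25 (adjusted p = 0.109), a fall of 4.98 on the log2 scale in KO against a difference of −1.55 in the mice labelled WT.

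The other genes of plasma cells did not all move with the immunoglobulin genes. Of 19 tested genes of a plasma cell list, which includes *Jchain* and *Mzb1*, 2 were higher and 1 lower in KO than in WT. In the WT+ZnO NPs-labelled libraries against WT 1 was higher and 9 lower, and 7 were lower and 0 higher in KO+ZnO NPs against KO. The shares of all genes called were 8.18% in KO against WT (4.61% higher), 43.0% in the WT+ZnO NPs-labelled libraries against WT (22.1% lower) and 14.7% in KO+ZnO NPs against KO (8.09% lower), so the 10 of 19 called in the WT+ZnO NPs-labelled libraries are near the share of all genes. *Sdc1*, which encodes CD138, a surface proteoglycan of plasma cells that keratinocytes also make, was higher in KO than in WT (1.27 ± 0.29, edgeR adjusted p = 0.0271) and also higher in the WT+ZnO NPs-labelled libraries than in WT (1.07 ± 0.29, adjusted p = 0.0127), against the direction of *Jchain*. *Prdm1*, which encodes the transcription factor BLIMP1 of plasma cells and of differentiating keratinocytes, fell in KO+ZnO NPs against KO (−0.99 ± 0.30, edgeR adjusted p = 0.0497).

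The B cell list, of 17 tested genes, had 0 called in KO against WT, 12 lower in the WT+ZnO NPs-labelled libraries against WT and 7 lower in KO+ZnO NPs against KO, beside 22.1% and 8.09% of all genes lower. The summed level of the list was at means of 497 CPM in WT, 679 in KO, 213 in the WT+ZnO NPs-labelled libraries and 748 in KO+ZnO NPs, so it was not lower in KO+ZnO NPs than in KO. Most of it was *Ly6d*, which keratinocytes also make, at means of 363, 578, 182 and 700 CPM in these groups. *Cd79b*, a subunit of the B cell receptor, fell in both ZnO NP comparisons (−3.38 ± 0.53 and −1.69 ± 0.49, edgeR adjusted p = 0.000717 and 0.0427). *Pax5*, the factor that holds B cell identity, was low everywhere, with a mean of 0.886 ± 0.145 CPM in WT (SD, n = 3) and 0.283 ± 0.073 CPM in KO, and fell in the WT+ZnO NPs-labelled libraries (−3.87 ± 0.80, edgeR adjusted p = 0.00324). The defining B cell gene *Ms4a1* was at means of 0.531 CPM in WT, 0.374 in KO, 0.0132 in the WT+ZnO NPs-labelled libraries and 0 in KO+ZnO NPs.

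Of the 9 tested genes of a list for class switching and the germinal centre, 1 was called in KO against WT. In the WT+ZnO NPs-labelled libraries against WT 4 were higher and 3 lower, and in KO+ZnO NPs against KO 4 were higher and 2 lower, where 43.0% and 14.7% of all genes were called. *S1pr2*, a receptor that keeps B cells in the germinal centre and is also found on other cells, fell in both (−1.53 ± 0.19 and −1.20 ± 0.18, edgeR adjusted p = 0.000155 and 0.00655). *Bcl6* and *Ung*, which are expressed far beyond B cells, rose in both (*Ung* by 1.36 ± 0.24 and 1.00 ± 0.24 on the log2 scale, edgeR adjusted p = 0.00144 and 0.0236). Of 10 tested receptors for antibody 1 was higher and 2 were lower in KO than in WT, beside 4.61% and 3.58% of all genes. Among these 10 receptors 8 were lower in the WT+ZnO NPs-labelled libraries than in WT and 5 were lower in KO+ZnO NPs than in KO, where 22.1% and 8.09% of all genes were lower. *Fcgr1*, the high affinity IgG receptor of macrophages, was lower in KO than in WT (−3.25 ± 0.33, edgeR adjusted p = 0.000642), opposite to the IgG genes, and fell in both ZnO NP comparisons (−6.32 ± 0.38 and −2.18 ± 0.32). Of 13 factors of recruitment and survival, 7 and 4 were lower in the ZnO NP comparisons, among them *Cxcl12* (−1.07 ± 0.28 and −1.81 ± 0.28, edgeR adjusted p = 0.0108 and 0.00747), the ligand that holds plasma cells in their niche. Its receptor *Cxcr4* rose in KO (1.01 ± 0.24, edgeR adjusted p = 0.0304). *Ccr10*, the receptor by which IgA plasma cells and skin T cells follow epithelial chemokines, was not called in KO against WT (adjusted p = 0.384) and was lower in KO+ZnO NPs than in KO (−1.25 ± 0.26, edgeR adjusted p = 0.0152).

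Markers of other cells moved with the groups. All 8 macrophage genes fell in both ZnO NP comparisons, and their summed level was 2513 to 3852 CPM in WT, 1555 to 2659 in KO, 163 to 334 in the WT+ZnO NPs-labelled libraries and 265 to 628 in KO+ZnO NPs. Of 10 T cell genes 4 were higher and 0 lower in KO than in WT, where 4.61% of all genes were higher, with summed levels of 120 to 180 against 42.8 to 84.7 CPM. With ZnO NPs 3 fell in the mice labelled WT and 6 in KO, beside 22.1% and 8.09% of all genes. Of 5 tested neutrophil genes 3 and 2 fell in the ZnO NP comparisons. Of the 6 mast cell genes 3 were lower and 1 higher in the WT+ZnO NPs-labelled libraries than in WT, 1 was higher in KO than in WT and 0 were called in KO+ZnO NPs against KO.

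Of the 6 keratinocyte genes 2 were higher and 3 lower in the WT+ZnO NPs-labelled libraries than in WT, and the 6 adipocyte genes had 5 lower there, beside 20.8% of all genes higher and 22.1% lower. In KO+ZnO NPs against KO 0 genes of either list were called. Of the 6 skeletal muscle genes 1 was lower in KO than in WT and 1 higher in KO+ZnO NPs than in KO, beside 3.58% and 6.57% of all genes. The lymph node stroma genes, which would be read where a node was taken with the skin, had only *Ccl21a* tested, at 14.8 ± 7.61 CPM in WT and 15.5 ± 15.0 CPM in KO (SD, n = 3). It was at 1.23 ± 0.845 CPM in the WT+ZnO NPs-labelled libraries, lower than in WT (−3.58 ± 0.96, edgeR adjusted p = 0.0125), and at 8.75 ± 7.10 CPM in KO+ZnO NPs, where it was not called against KO (−0.83, edgeR adjusted p = 0.532). The mean summed level of the 5 stroma genes found was 15.4 CPM in WT, 1.75 CPM in the WT+ZnO NPs-labelled libraries (0.800 to 2.74), 16.9 CPM in KO (5.28 to 34.3) and 9.08 CPM in KO+ZnO NPs (2.09 to 16.3), so it was lower beside the lower immunoglobulin level of the WT+ZnO NPs-labelled libraries. *Ccl19*, *Cr2*, *Madcam1* and *Glycam1* were at group means of 0.655 CPM or less. The part of these cells in the immunoglobulin results was not tested.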

How the data were processed

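Whole skin of 12 mice was sequenced as RNA, with 3 mice in each of 4 groups taken from the sample labels. The authors deposited raw counts of reads for each gene in each library. The paper states alignment with STAR and counting with HTSeq, whereas the submitters' processing notes name HISAT2 2.0.5 and mm10, and the labels and the paper also differ on the library kit and the sequencer. Which annotation was counted, and whether strand was used, is not given in the sources used here. HTSeq by default leaves out reads that overlap several genes or align to several places, which lowers the counts of close variable genes. Rearranged and mutated antibody reads can align to another variable gene than the one they came from, or not at all. The table had 0 columns of other samples and 0 rows without a gene.

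Symbols and positions were taken from release 21 of the GENCODE mouse annotation on GRCm38, in which 52489 of 52636 identifiers were found. The main test was edgeR 4.0.16 in R 4.3.3 (quasi-likelihood F test, TMM factors, edgeR's filter on low counts, 1 coefficient per group, all 12 libraries, common dispersion 0.109) with Benjamini-Hochberg adjustment over 18822 genes and a call below 0.05. Levels are CPM scaled by TMM factors. Standard errors are the absolute log2 fold change over the square root of F. Fitted fold changes of genes with a group at 0 depend on the prior count and are no bounds, so lower bounds were computed against 3 counts in each library. Shares have 95% exact binomial (Clopper-Pearson) intervals. Replicates differed by more than sampling noise (chi-square per degree of freedom 37.4 to 162), so none was merged. Per the study's methods each library is 1 mouse, so p-values measure the spread between mice.

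The members and the gene lists were chosen with earlier results of these data known. The genes named are every constant gene, *Jchain* and *Mzb1*, the 10 variable genes with the highest mean level, the leading heavy and kappa variable gene of each library, the 3 members with the largest rise and fall among those called in a comparison, and up to 4 called genes of each list in list order, of which some are not reported here. *Ms4a1*, *Ccl19*, *Cr2*, *Madcam1*, *Glycam1*, the members at the edge of the count minimum and the 7 further variable genes called higher in KO were named after their values were seen. Alternatives were RLE factors, library size only, TMM without the members, DESeq2 1.42.0 on all or only the groups compared, edgeR on only those groups, no filter, a minimum of 10 counts per library throughout, a block for replicate number, sex as a covariate, only libraries with *Xist*, and leaving out each library. The fit was tested on simulated data with 200 changed genes and the common dispersion for every gene. That test does not cover members with a wider spread between mice. Comparisons of KO with WT and of KO+ZnO NPs with KO share the KO libraries, and KO against WT shares the WT libraries with the first ZnO NP comparison.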

Additional observations from a re-analysis of the deposited data

Results flagged for a closer look

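The effect of ZnO NPs differed between the genotypes for 6 genes named from the lists, by the interaction term of the edgeR fit over all 12 libraries, and for no immunoglobulin member. Over the whole lists it was called for 3 of 10 antibody receptor genes, 3 of 8 macrophage genes, 1 of 19 plasma cell genes, 1 of 17 B cell genes, 1 of 13 recruitment and survival factors, 1 of 6 mast cell genes and 1 of 6 adipocyte genes, beside 8.68% of all genes. It was called for 0 of 9 germinal centre and switching genes, 0 of 10 T cell genes and 0 of 6 keratinocyte genes. The same held for 0 of 6 skeletal muscle genes, 0 of 5 neutrophil genes, 0 of 4 Y-linked genes and 0 of 1 stroma gene. *Fcgr1*, the high affinity IgG receptor, had a log2 difference of 4.15 (adjusted p = 0.00186): it was at 162 CPM on average in WT and 2.03 CPM in the WT+ZnO NPs-labelled libraries, against 17.1 and 3.77 CPM in KO and KO+ZnO NPs. The macrophage genes *Adgre1* and *Cd68* had differences of 2.71 (adjusted p = 0.0237) and 2.11 (adjusted p = 0.0441) in the same direction, and the adipocyte gene *Fabp4* had 2.64 (adjusted p = 0.0236). *Ccr10*, the receptor of IgA plasma cells and skin T cells, had −1.75 (adjusted p = 0.020), with 1.17 and 1.66 CPM in WT and the WT+ZnO NPs-labelled libraries and 1.52 and 0.637 CPM in KO and KO+ZnO NPs. *Kit*, a receptor of mast cells and melanocytes, had −2.36 (adjusted p = 0.0205), with 11.5 and 48.8 CPM against 57.3 and 47.1 CPM. With sex as a covariate the interaction was called for 125 of 18822 genes, against 1633 without it. Of these 6 genes it was then called for *Fcgr1* (3.95, adjusted p = 0.0211) and *Fabp4* (3.38, adjusted p = 0.0342). It was no longer called for *Adgre1* (2.65, adjusted p = 0.117), *Cd68* (1.50, adjusted p = 0.229), *Kit* (−2.38, adjusted p = 0.109) or *Ccr10* (−1.71, adjusted p = 0.123).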

How the results depend on the processing

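The number of members called depended on the processing, but no called constant gene, *Jchain* or *Mzb1* turned its direction under any alternative. With at least 10 counts in every library only 4 members could be tested, of which 2 were called in KO against WT, 3 in the WT+ZnO NPs-labelled libraries against WT and 4 in KO+ZnO NPs against KO, beside 9.70%, 46.4% and 17.8% of all genes. In these comparisons DESeq2 on all libraries called 25, 63 and 65 of 88 (16.4%, 47.5% and 23.3% of all genes) and on only the groups compared 30 of 90, 10 of 13 and 44 of 51 (25.6%, 51.3% and 16.8%). In KO+ZnO NPs against the WT+ZnO NPs-labelled libraries it called 7 of 88 and 2 of 6 (13.0% and 5.06%). edgeR on only the groups compared called 16 of 90 in KO against WT, a share of 17.8% near the 15.9% of all genes. It called 10 of 13 and 8 of 51 in the 2 ZnO NP comparisons (49.0% and 3.24%). With no filter 42 of 180 members were called in KO against WT and 89 in KO+ZnO NPs against KO (4.21% and 6.18%). With only the *Xist* libraries 41 of 135 were called in KO against WT (3.74%), and sex as a covariate left 2 of 88 in the WT+ZnO NPs-labelled libraries against WT (20.7%). Leaving out 1 library gave 2 to 50 in KO against WT, 13 to 55 in the WT+ZnO NPs-labelled libraries against WT, 6 to 93 in KO+ZnO NPs against KO, 0 to 1 in KO+ZnO NPs against the WT+ZnO NPs-labelled libraries and 0 to 0 for the interaction, with 93 to 138 members tested and, in the first 3 comparisons, 1.94% to 10.6%, 30.7% to 46.7% and 2.34% to 16.4% of all genes called. Divided by exon length, the mean IgA share was 55.3% in KO and 24.8% in KO+ZnO NPs. Values that were not called reversed for *Ighd* in KO against WT (0.039 with sex as a covariate), *Ighg3* (−2.18 to 2.74 with 1 library left out), *Iglc2* (−0.93 with the replicate block, −1.60 to 1.62 with 1 library left out), *Iglc3* (−2.24 to 3.72 with 1 library left out), and *Mzb1* in the WT+ZnO NPs-labelled libraries against WT (0.98 with sex as a covariate). The cause was not tested.

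Same-numbered libraries of the groups compared deviated with correlations of −0.343 to 0.429. Libraries of different numbers were not compared, so this cannot settle whether the replicate numbers pair the mice. In KO+ZnO NPs against KO the values were 0.429, 0.163 and 0.051, and the first is of libraries that both have Y-linked transcripts. With the replicate block 10, 38, 37, 0 and 0 of 88 members were called in the 5 comparisons, beside 6.58%, 42.9%, 13.8%, 3.33% and 7.59% of all genes. Depth limits most variable genes, whose split among near copies is uncertain.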
